A study of Homo sapiens with 12 samples.

Results

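The 32 genes described here carry cholesterol through a cell: the enzymes that make it, the SREBP system that sets how much is made, and the proteins that take it up, store it as ester and export it. They were chosen by name, for their roles in the pathway, with earlier results of these data known. Of the 32, 30 had a probe among 18852 named genes. FDFT1 and NR1H2 were not analysed here, as the annotation used lists no probe for them. The arrays came from HepG2, a human hepatoma line that is often used in place of hepatocytes, and compared 6 cultures in high glucose (25 mM) with 6 in low glucose (2.7 mM per the sample labels, 0 mM per the methods of the study). All 12 cultures came from a line maintained in 25 mM glucose with 10% fetal bovine serum, and per the methods all were held for 16 h in 2.7 mM glucose with serum before the final 8 h in either medium. Serum carries lipoprotein cholesterol, and the sources used here do not say whether it was present in those 8 h. HepG2 is a single tumour line, and no array was taken at the start of the 8 h, so a gene is said to rise or fall in high glucose relative to low glucose only.

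Cholesterol is built from acetyl-CoA. The mevalonate arm turns acetyl-CoA into isoprenoid units and farnesyl diphosphate, and the sterol arm turns these into squalene, lanosterol and finally cholesterol. When membranes of the endoplasmic reticulum run low in sterol, SCAP escorts SREBP proteins to the Golgi, where they are cut and released to switch on the genes of both arms, whereas the INSIG proteins hold SCAP back when sterol is plentiful. Surplus sterol is esterified by the SOAT enzymes or exported by ABC transporters, whose genes are driven by the oxysterol receptors LXR-alpha (NR1H3) and LXR-beta. Control of SREBP lies largely in this processing of the protein, which an expression array does not see.

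Values are the authors' normalized probe intensities, and log2 changes are high minus low glucose. They were tested with limma over all genes with Benjamini-Hochberg adjustment, and a gene was called changed at an adjusted p under 0.05. The lowest intensity was 47.2 and the median 90.8 over all probes, from which it is inferred that the values still hold background or an offset. The change of a dim gene may thus be understated. Pairwise correlations across genes were 0.994 to 0.997 within groups and 0.984 to 0.988 between them. The summed intensity of 7 hepatocyte markers (ALB, AFP, TTR, FGB, APOA1, TF and AHSG) was 91949 to 106740 in high and 90084 to 99468 in low glucose. This sum is carried by the brightest of them, and 1 marker, FGB (the fibrinogen beta chain), rose without overlap (log2 change 0.53, adjusted p = 2.15e-08 from limma), a change within the range of the enzymes. The other 6 did not pass, with log2 changes of -0.03 (ALB) to 0.14 (APOA1), and the part of this difference in the results on the members was not tested. That of 4 markers of other cells (PTPRC, COL1A1, PECAM1 and VIM) was 426 to 520 in high and 413 to 522 in low glucose. In RNA pooled from a culture, a higher level in every cell and more cells that express a gene cannot be told apart.

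The synthesis enzymes were higher in high glucose almost throughout. Of the 18 measured, 17 rose and none fell, and for 16 of them all 6 high-glucose arrays lay above all 6 low-glucose arrays. The median log2 change of the 18 was 0.59, beside 0.01 over all genes. Among all genes, 16.6% were called higher, and 10.2% had no overlap in this direction. Of the other 12 measured members, 2 rose, 1 fell and 9 did not pass the test, with a median of 0.01. Over all 30 members, 19 rose and 1 fell. Among all genes, 13.3% were called lower, and in 8.32% all high-glucose arrays lay below all low-glucose arrays. No change among the members reached 2-fold, and the largest was 1.88-fold.

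**Figure D1:**
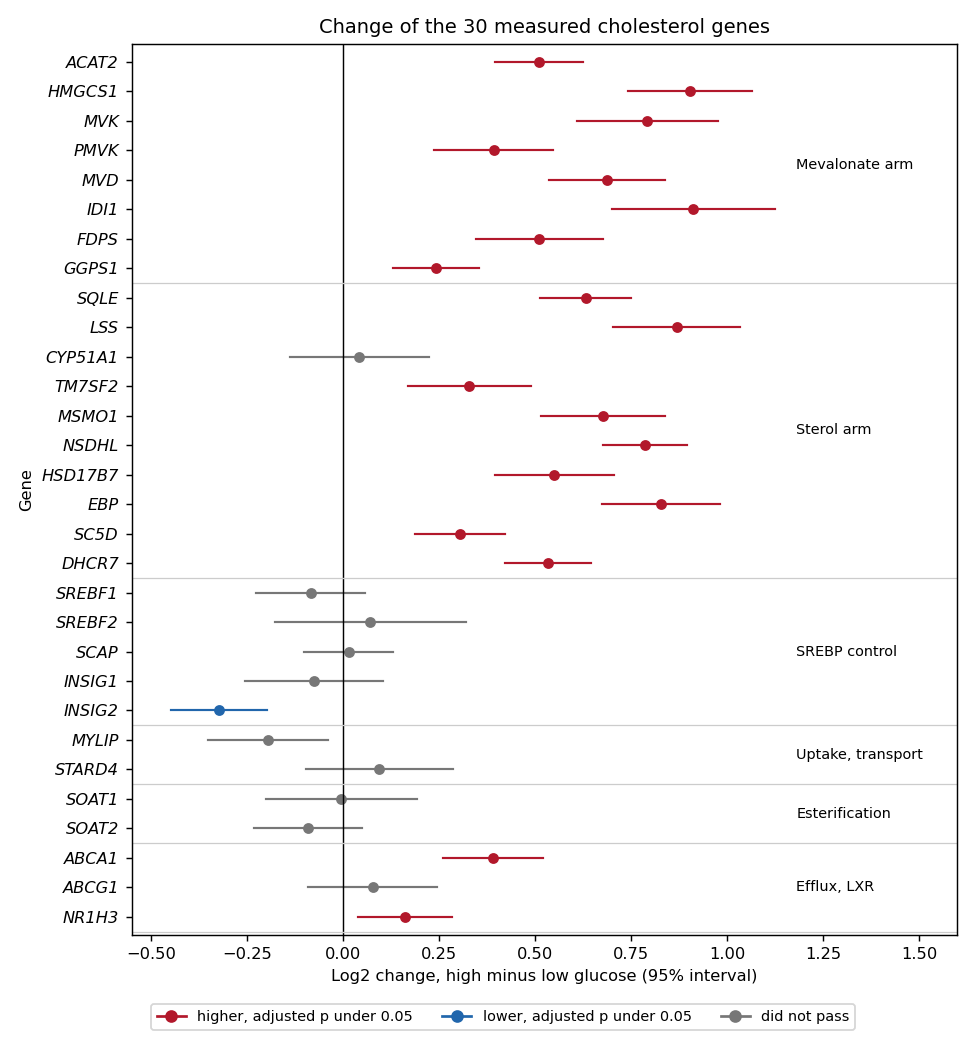
Log2 change of each measured gene between 6 high-glucose and 6 low-glucose arrays, grouped by role, with the 95% interval of the limma fit (points and lines, coloured by whether the gene passed at an adjusted p under 0.05). All 8 genes of the mevalonate arm and 9 of 10 of the sterol arm have intervals wholly to the right of 0, while 4 of the 5 SREBP control genes have intervals that include 0.

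In the mevalonate arm all 8 enzymes rose, by 0.24 to 0.91 on the log2 scale. IDI1, which encodes the isomerase that converts isopentenyl to dimethylallyl diphosphate, had intensities of 1355.8 to 1816.3 in high glucose (median 1490.1) and 584.3 to 1039 in low glucose (median 877.6). The groups were separate, and the low-glucose arrays were spread more widely in proportion to their level, with replicates 3 and 5 lowest. The log2 change of 0.91 (standard error 0.10, adjusted p = 4.6e-08 from limma) placed IDI1 96th of 18852 genes in order of rise. HMGCS1 encodes the cytosolic synthase that makes HMG-CoA from acetyl-CoA and acetoacetyl-CoA. Its high-glucose arrays ran from 4714.6 to 6059.9 (median 4915.1), and its low-glucose arrays from 2184 to 3330.3 (median 2782.7). Replicate 1 was the highest array in each group, and the groups did not overlap (log2 change 0.90, standard error 0.08, adjusted p = 3.1e-10).

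The kinases and the decarboxylase that follow in the arm rose as well. For MVK, the gene of mevalonate kinase, the high-glucose arrays lay between 504 and 656.1 (median 558.2) and the low-glucose arrays between 267.5 and 384.2 (median 331.8). Every high-glucose culture was thus above every low-glucose one (log2 change 0.79, standard error 0.09, adjusted p = 3.8e-08). MVD, the gene of the decarboxylase that yields isopentenyl diphosphate, had 675.1 to 826 (median 758.8) against 403.8 to 538.4 (median 465.9), again without overlap (log2 change 0.69, standard error 0.07, adjusted p = 1.45e-08). PMVK, the gene of the kinase between them, rose less, by 0.39 on the log2 scale (adjusted p = 0.00013). ACAT2, the gene of the cytosolic thiolase that starts the arm, rose by 0.51, and its other probe by 0.61. FDPS, the gene of farnesyl diphosphate synthase, rose by 0.51. GGPS1, whose product takes farnesyl diphosphate into geranylgeranyl diphosphate and thus out of sterol synthesis, had the smallest change of the arm, 0.24 (95% interval 0.13 to 0.35, adjusted p = 0.00075). Its arrays nevertheless did not overlap, with 2209.3 to 2429.5 in high and 1714.5 to 2060.3 in low glucose.

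**Figure D2:**
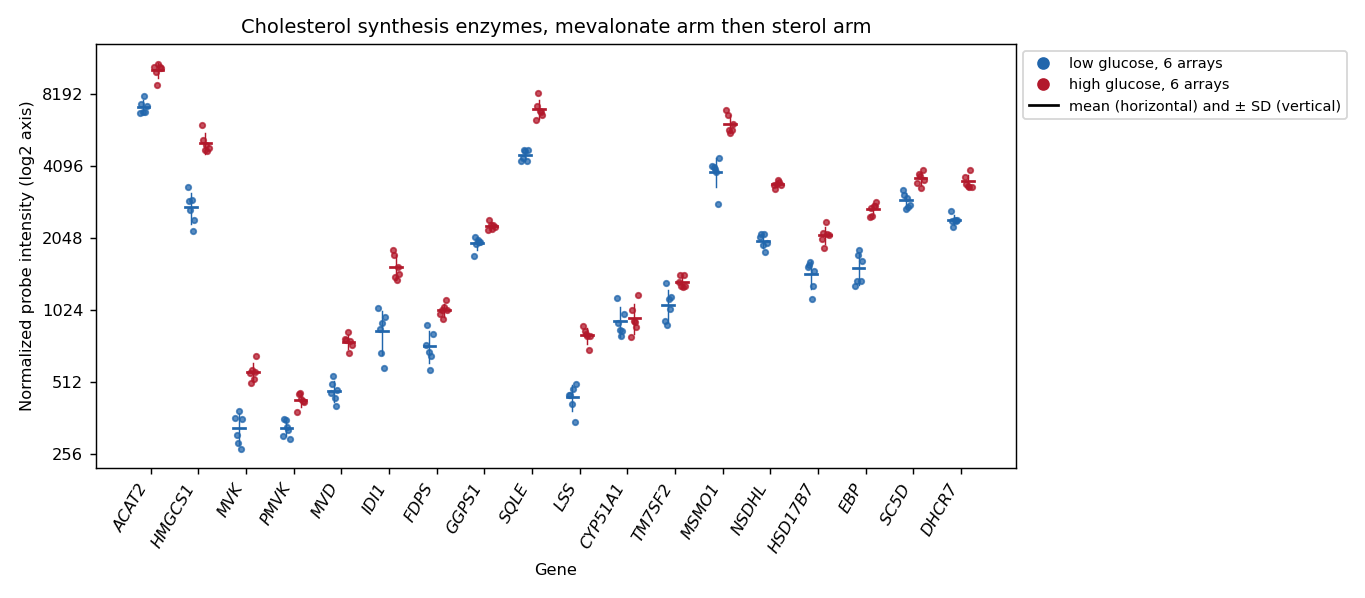
Normalized probe intensity (log2 axis) of the 18 synthesis enzymes on each of the 6 low-glucose (blue) and 6 high-glucose (red) arrays, with the group mean and SD. The groups are separate for 16 genes and overlap for CYP51A1 and TM7SF2; heights of different genes are not comparable, since each probe has its own brightness.

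In the sterol arm 9 of 10 measured enzymes rose, by 0.30 to 0.87 on the log2 scale. LSS, which encodes the synthase that folds squalene epoxide into lanosterol, had intensities of 691.4 to 877.8 in high glucose (median 801.5) and 346.2 to 498.5 in low glucose (median 449.9). Low-glucose replicate 5 was the lowest array, and no array of one group reached the range of the other (log2 change 0.87, standard error 0.08, adjusted p = 1.0e-09). The other probes of LSS were dimmer and moved less: one was called higher (0.24, adjusted p = 0.049 over all probes) and the other did not pass (0.23, adjusted p = 0.17). With the mean of its 3 probes, LSS still passed, with a smaller log2 change of 0.45, and MSMO1 gave 0.44 in the same way.

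EBP and NSDHL act on the sterol nucleus and its methyl groups after lanosterol. EBP, the gene of the isomerase that shifts the ring double bond, had 2494.8 to 2897.4 in high glucose (median 2741.4) and 1282.7 to 1813.8 in low glucose (median 1498.0), which gave a log2 change of 0.83 (standard error 0.07, adjusted p = 6.7e-10). Within low glucose, replicates 1, 2 and 5 were at most 1353.4 and the others at least 1642.6, yet none came near the high-glucose range. NSDHL, the gene of the dehydrogenase that removes a C4 methyl group as carbon dioxide, was the tightest: 3269.3 to 3575.7 in high glucose (median 3414.4) against 1787.9 to 2115.4 in low glucose (median 2006). Its log2 change of 0.79 had a standard error of 0.05, and its adjusted p of 2.5e-12 from limma was the smallest among the members.

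MSMO1, which encodes the oxidase that starts the removal of the C4 methyl groups, ranged from 5619.5 to 6974.2 in high glucose (median 5946.4) and from 2829.9 to 4415.7 in low glucose (median 4004.5). The groups were separate, with low-glucose replicate 5 well below the rest of its group (log2 change 0.68, standard error 0.08, adjusted p = 5.9e-08). Another probe of the gene moved alike (0.62), while a further dim one, with a mean of 107.6 in high glucose, did not pass (0.01, adjusted p = 0.94 over all probes). SQLE, the gene of squalene epoxidase and the first oxygen-dependent step, rose by 0.63 by one probe and 0.80 by the other. HSD17B7, the gene of the 3-keto reductase of the arm, rose by 0.55, and DHCR7, the gene of the last reductase before cholesterol, by 0.53 (0.69 by its other probe). SC5D, the gene of the C5 desaturase, rose by 0.30 and TM7SF2, the gene of a C14 reductase, by 0.33. TM7SF2 was the only called synthesis enzyme whose groups overlapped, since low-glucose replicate 2 (1327.5) lay above the lowest high-glucose array (1273.4).

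CYP51A1 stood apart from its neighbours in the arm. It encodes the cytochrome P450 that removes the C14 methyl group of lanosterol, between the steps of LSS and TM7SF2. Its intensities were 784.2 to 1175 in high glucose (median 913.4) and 796.5 to 1148.2 in low glucose (median 872.8). The groups overlapped across nearly their whole range, with low-glucose replicate 1 and high-glucose replicate 6 highest. The log2 change was 0.04, with a 95% interval of -0.14 to 0.22 (adjusted p = 0.79 from limma), and without high-glucose replicate 6 it was -0.02. The upper end of that interval lay below the log2 change of every other measured synthesis enzyme, GGPS1 (0.24) included, though these differences between genes were not tested. A single probe reports this gene.

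Promoters of these genes are shown because the enzymes moved together, and because SREBP is known to act jointly with NF-Y, a factor that binds the box CCAAT. The activity of neither factor was measured here, and the cause of the joint rise was not tested. RefSeq windows (GRCh38.p14, 250 bases before to 50 after the transcription start) were found for 27 of the 32 genes. CCAAT, read on either strand (ATTGG on the other), was present in a window of 14 of the 16 synthesis enzymes that had one, and of 20 of the 27 genes in all, beside 39.7% of 27305 genes. The sterol element TCACNCCAC, on either strand, was present for 1 of the 27, SREBF2, beside 1.39% of all genes. The shorter TCACNNCA, which contains the first part of that element and overlaps it, was present for 4 of the 27 (GGPS1, MSMO1, MVK and SREBF2), beside 15.1%. The E-box CACGTG was found for 5 (ABCA1, INSIG1, LSS, SC5D and SCAP), beside 8.77%. A match describes letters only and is no evidence of binding, and the lack of a match says only that the letters are not in this window. The windows shown, 5′ to 3′ on the strand of the gene, are those of the 2 genes with the largest rise and a single listed start in each arm (MVK and MVD, LSS and EBP), of NSDHL, which had the smallest p, and of SREBF2. Capitals mark CCAAT or ATTGG and, in SREBF2, TCACCCCAC. In order they lie at chr12:109573544-109573843 (+), chr16:88663042-88663341 (-), chr21:46228725-46229024 (-), chrX:48521558-48521857 (+), chrX:152830813-152831112 (+) and chr22:41832855-41833154 (+).
MVK: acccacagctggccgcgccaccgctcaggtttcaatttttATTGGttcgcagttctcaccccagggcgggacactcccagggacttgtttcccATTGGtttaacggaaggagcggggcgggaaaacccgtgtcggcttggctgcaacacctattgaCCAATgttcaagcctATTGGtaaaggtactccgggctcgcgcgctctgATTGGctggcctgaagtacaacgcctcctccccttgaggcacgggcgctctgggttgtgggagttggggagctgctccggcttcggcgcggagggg
MVD: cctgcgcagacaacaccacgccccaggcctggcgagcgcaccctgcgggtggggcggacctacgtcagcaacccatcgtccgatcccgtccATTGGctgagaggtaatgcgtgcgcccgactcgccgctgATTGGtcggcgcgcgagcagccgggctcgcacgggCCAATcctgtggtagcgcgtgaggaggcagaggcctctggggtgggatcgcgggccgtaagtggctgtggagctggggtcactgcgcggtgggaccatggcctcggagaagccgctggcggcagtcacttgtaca
LSS: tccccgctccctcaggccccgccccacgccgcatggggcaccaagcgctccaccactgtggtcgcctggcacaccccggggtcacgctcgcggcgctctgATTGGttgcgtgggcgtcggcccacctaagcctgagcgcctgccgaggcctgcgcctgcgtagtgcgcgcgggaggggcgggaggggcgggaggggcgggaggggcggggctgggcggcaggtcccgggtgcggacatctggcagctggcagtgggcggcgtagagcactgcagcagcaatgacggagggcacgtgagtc
EBP: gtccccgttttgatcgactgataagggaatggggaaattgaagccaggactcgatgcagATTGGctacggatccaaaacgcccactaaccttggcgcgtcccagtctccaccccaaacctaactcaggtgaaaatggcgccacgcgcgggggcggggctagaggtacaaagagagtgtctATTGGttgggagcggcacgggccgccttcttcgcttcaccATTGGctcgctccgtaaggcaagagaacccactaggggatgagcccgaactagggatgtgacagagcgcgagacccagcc
NSDHL: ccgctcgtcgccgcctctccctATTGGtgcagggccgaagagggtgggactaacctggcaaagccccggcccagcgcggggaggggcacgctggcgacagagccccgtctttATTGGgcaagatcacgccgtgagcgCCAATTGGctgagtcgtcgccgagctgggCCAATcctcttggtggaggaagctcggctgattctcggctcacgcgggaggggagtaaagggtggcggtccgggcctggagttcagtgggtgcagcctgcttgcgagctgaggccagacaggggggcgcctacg
SREBF2: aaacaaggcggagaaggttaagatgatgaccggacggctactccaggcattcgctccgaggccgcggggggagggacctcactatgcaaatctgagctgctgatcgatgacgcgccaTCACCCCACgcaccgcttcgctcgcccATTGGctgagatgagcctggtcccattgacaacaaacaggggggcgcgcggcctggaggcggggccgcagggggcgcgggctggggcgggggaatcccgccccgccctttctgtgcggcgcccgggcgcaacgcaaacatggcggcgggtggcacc

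The boxes sat mostly within 200 bases before the start. As only 250 bases before the start were searched, this placement is not read as a feature of these genes. MVK and NSDHL each held 5, MVD and EBP 3, and LSS and SREBF2 1. In NSDHL 2 of the 5 overlap in the palindrome CCAATTGG, 113 bases before the start. In SREBF2 the sterol element begins 133 bases before the start and the box 106 bases before it. The synthesis enzymes whose window held no such box were CYP51A1 and PMVK, and neither window held any of the 4 motifs searched. Of these, PMVK rose (log2 change 0.39) and CYP51A1 did not pass the test (0.04).

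Of the 5 genes of the SREBP machinery, none was called higher, 1 fell and 4 did not pass the test, beside 16.6% of all genes called higher and 13.3% called lower. With 5 genes these counts are close to those shares, and a difference from the enzymes was not tested. SREBF2, which encodes SREBP-2, the form that mainly drives cholesterol genes, had 145.2 to 198.4 in high glucose (median 174.7) and 125.1 to 208.3 in low glucose (median 169.5). The high-glucose arrays lay wholly within the low-glucose range. A single probe reports SREBF2, and it is rather dim, with a mean of 171.3 beside the median of 90.8 over all probes. Its change may thus be understated. In low glucose, replicates 1 to 3 had 197.4 to 208.3 and replicates 4 to 6 had 125.1 to 141.6, a wider gap than any in high glucose. The log2 change was 0.07 with a 95% interval of -0.18 to 0.32 (adjusted p = 0.74 from limma), the widest interval among the 5 genes, and it includes the log2 changes of GGPS1 (0.24) and SC5D (0.30), which were called. SREBF1, which encodes SREBP-1a and SREBP-1c, had 616 to 708.7 (median 633.4) against 606.2 to 755 (median 707.6), again with overlap. Its log2 change was -0.08 (95% interval -0.23 to 0.06), and its other probes gave 0.04 and -0.17, neither of which passed. The probes are not known here to tell the 2 isoforms apart. By qRT-PCR in HepG2, the study reports a strong rise of SREBP-1c mRNA in high glucose. No such rise was seen by these array probes, and the reason for the difference was not tested.

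SCAP, the gene of the escort protein, had the narrowest interval among the genes that did not pass. Its arrays ran from 2226.2 to 2609.8 in high glucose (median 2466.9) and from 2228.6 to 2580.1 in low glucose (median 2404.5), so the ranges nearly coincided. Its log2 change was 0.01 with a 95% interval of -0.10 to 0.13 (adjusted p = 0.89). INSIG1, a retention protein gene that SREBP itself induces, had 99.3 to 129 (median 107.3) in high and 97.4 to 128.6 (median 116.3) in low glucose. These values lie close to the median of all probes, its other probe was dimmer still, and the log2 change of -0.07 (95% interval -0.25 to 0.11, adjusted p = 0.61) is read within that limit.

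INSIG2 was the only member that fell. It encodes the second retention protein, whose liver transcript is known from rodents to be lowered by insulin. Its intensities were 4583.7 to 5769.4 in high glucose (median 5409.6) and 5990.4 to 7357 in low glucose (median 6663.4). All 6 high-glucose arrays lay below all 6 low-glucose arrays, by a small margin, since the highest of the former was replicate 6 at 5769.4 and the lowest of the latter replicate 1 at 5990.4. The log2 change was -0.32 (standard error 0.06, adjusted p = 0.00012 from limma), and it stayed between -0.35 and -0.28 and past an adjusted p of 0.05 in each of 19 refits with another setting or an array left out. It did not reach a fold of 1.5.

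**Figure D3:**
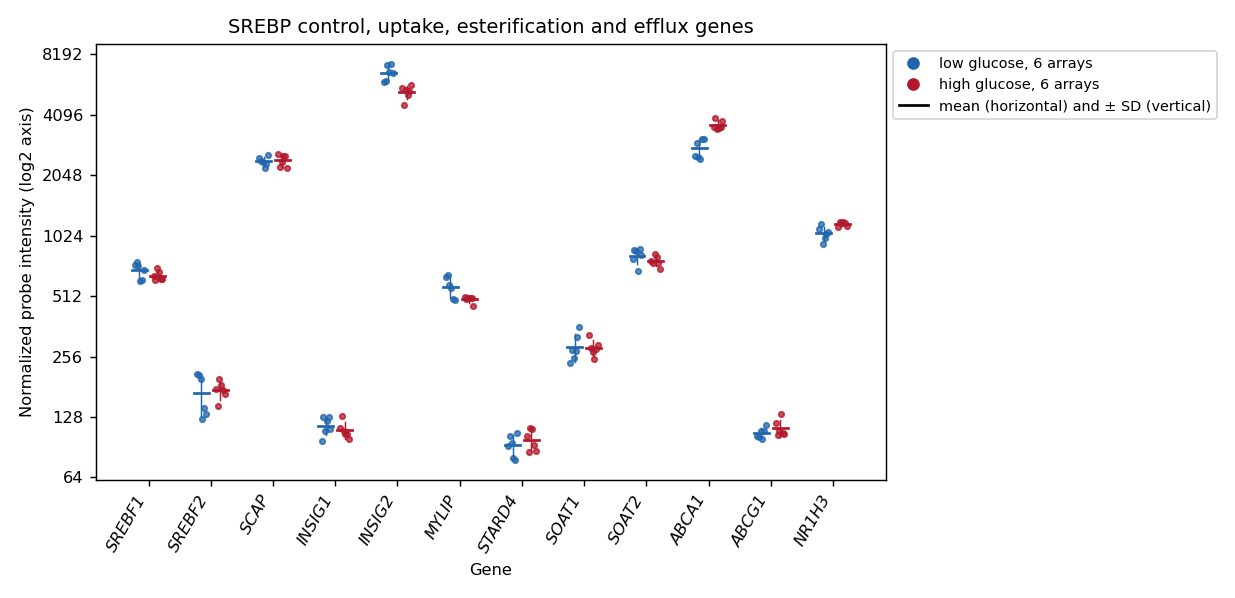
Normalized probe intensity (log2 axis) of the 12 other measured genes on each of the 6 low-glucose (blue) and 6 high-glucose (red) arrays, with the group mean and SD. The groups are separate for INSIG2, lower in high glucose, and for ABCA1, higher in high glucose, and overlap for the other 10.

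Export genes rose in part. ABCA1, which encodes the pump that loads cholesterol onto apolipoprotein A-I, had 3477.5 to 3956.1 in high glucose (median 3558.4) and 2475.6 to 3120.2 in low glucose (median 2763.8). The groups did not overlap, and the low-glucose arrays fell into a lower set (replicates 1, 3 and 4, at most 2560.3) and a higher one (replicates 2, 5 and 6, at least 2967.3). Its log2 change was 0.39 (standard error 0.06, adjusted p = 1.2e-05 from limma). NR1H3, the gene of LXR-alpha, had 1130.4 to 1203.1 in high glucose and 933.1 to 1169 in low glucose, with overlap through low-glucose replicate 2. Its log2 change of 0.16 passed narrowly (adjusted p = 0.040) and did not pass in 9 of the 19 refits, among them the fits without high-glucose replicate 2, 3, 4, 5 or 6 or low-glucose replicate 3, 4 or 5 (adjusted p of 0.0526 to 0.115). ABCG1, the gene of a pump that passes cholesterol to high-density lipoprotein, was dim by all 6 of its probes, with 104.6 to 132.9 in high and 99.6 to 116.1 in low glucose by the probe used. None of the 6 passed, with log2 changes of -0.05 to 0.14.

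The members with roles in uptake, transfer and esterification (MYLIP, STARD4, SOAT1 and SOAT2) gave no call. Among all genes, 16.6% were called higher and 13.3% lower, and with so few members no result about these roles is read from this. Other genes of uptake and transfer were called, as given below. MYLIP encodes the ubiquitin ligase IDOL, which is induced by LXR and marks lipoprotein receptors for breakdown. Its intensities were 454.9 to 505.2 in high glucose (median 501.1) and 486.9 to 651.9 in low glucose (median 569.6). Low-glucose replicates 1 to 4 lay above every high-glucose array and replicates 5 and 6 among them. The log2 change of -0.20 (95% interval -0.35 to -0.04) missed the threshold at an adjusted p of 0.052 and passed it in 6 of the 19 refits, with an adjusted p of 0.018 without low-glucose replicate 5 and 0.016 without low-glucose replicate 6. STARD4, the gene of a sterol carrier of the cytosol, was dim, at 85.7 to 113.1 in high and 78 to 106.8 in low glucose (log2 change 0.09, 95% interval -0.10 to 0.29). SOAT1 and SOAT2 encode the enzymes that esterify cholesterol, the latter in hepatocytes and intestine. Their log2 changes were -0.004 (95% interval -0.20 to 0.19) and -0.09 (95% interval -0.23 to 0.05), with adjusted p-values of 0.98 and 0.38 from limma.

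**Figure D4:**
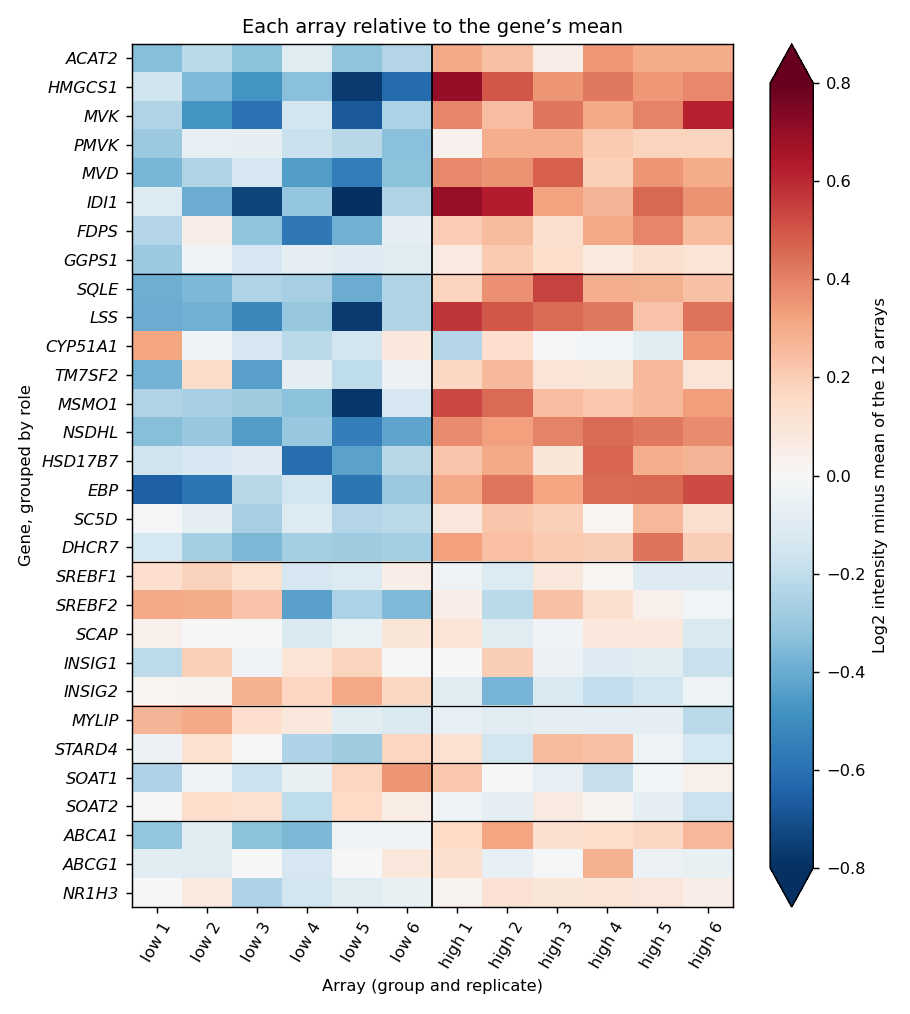
Log2 intensity of each of the 30 genes on each array minus the gene's mean over the 12 arrays (colour, scale ending at -0.8 and 0.8), with arrays in columns (6 low, then 6 high glucose) and genes in rows by role. The synthesis enzymes form a block of negative values in low glucose and positive values in high glucose except for CYP51A1, and low-glucose replicate 5 is the lowest array of its group for 8 of the 18.

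The arrays of a group were alike in the synthesis enzymes as a whole. Averaged over the 18 enzymes, each centred on its own mean, the high-glucose arrays stood at 0.26 to 0.33 and the low-glucose arrays at -0.46 to -0.22 on the log2 scale. Low-glucose replicate 5 was the array at -0.46, with the next at -0.32. It was the lowest of its group for 8 of the 18 enzymes, HMGCS1, IDI1, LSS and MSMO1 among them, and over all genes its mean correlation with the rest of its group, 0.994, was the lowest of the 12 arrays. Without it, the median log2 change of the 18 was 0.56, and with any other array left out it was 0.58 to 0.62. The calls of the 17 enzymes held in every fit with an array left out.

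Other genes of sterol and isoprenoid metabolism moved in both directions. Of 53 such genes from a list written from textbook knowledge, 49 were measured. Of these, 12 rose, 10 fell and 27 did not pass, and the median log2 change was 0.04. The rises made up 24.5% and the falls 20.4% of the list, beside 16.6% and 13.3% of all genes. Among the 7 genes of SREBP cleavage and regulated degradation in the endoplasmic reticulum, none rose and 1 fell. The latter was MBTPS2, the gene of the site-2 protease that releases SREBP, with a log2 change of -0.32 (adjusted p = 0.0013 from limma). Its groups overlapped, and the change is that of the brighter of its 2 probes, the other not being reported here. Of 8 measured genes of lipoprotein uptake and the lysosome, 4 rose and 2 fell. Of 10 sterol transfer genes, 3 fell and none rose.

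**Figure D5:**
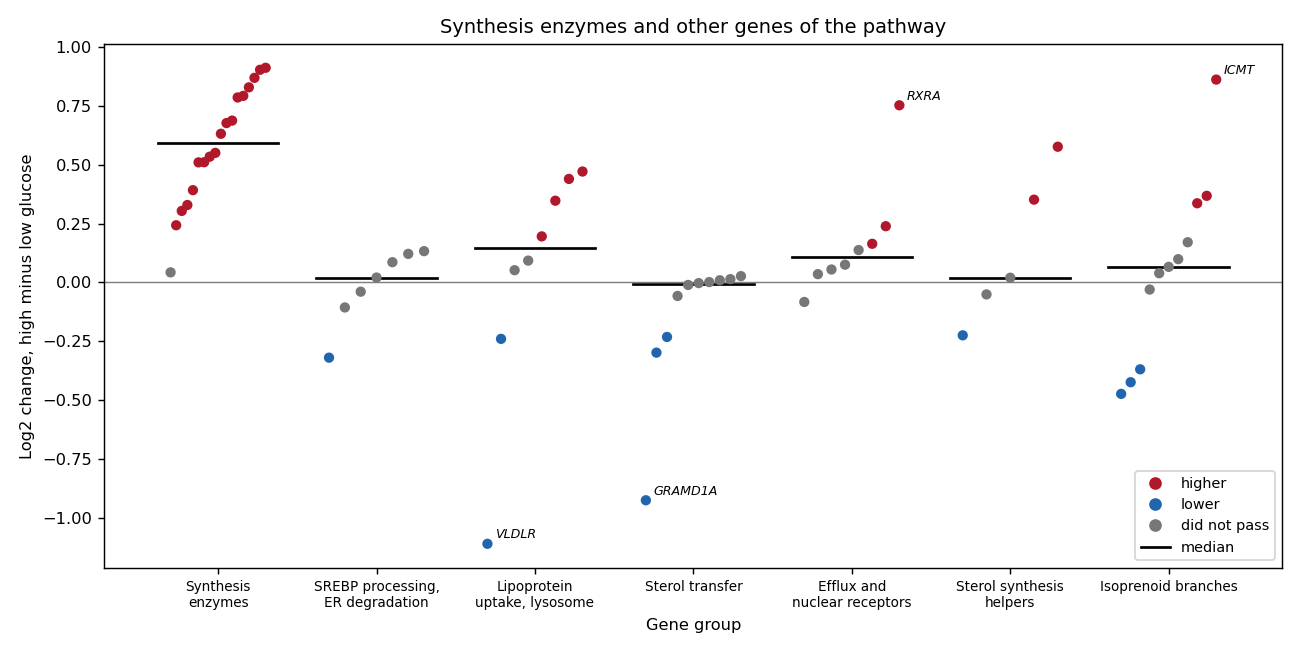
Log2 change (high minus low glucose) of the 18 synthesis enzymes and of 49 other genes in 6 groups; each point is a gene, coloured by its call at an adjusted p under 0.05, and the bar is the group median. The enzymes have a median of 0.59, the other groups medians between -0.01 and 0.14, and the called genes outside the enzymes with a change of at least 1.5-fold are named.

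The largest changes on that list went in both directions. VLDLR, a lipoprotein receptor gene, had intensities of 134.3 to 174.7 in high glucose (median 152.7) and 259.9 to 438.7 in low glucose (median 329.6), without overlap (log2 change -1.11, adjusted p = 4.4e-09 from limma). Its other probe was dim, with means of 61.6 and 66.0, and did not pass. GRAMD1A, whose product carries cholesterol from the plasma membrane to the endoplasmic reticulum, fell, with 734.9 to 814.1 in high and 1252.1 to 1709.7 in low glucose (log2 change -0.93, adjusted p = 2.0e-11). RABGGTB, the gene of a subunit of the enzyme that attaches geranylgeranyl groups to Rab proteins, fell by 0.47 by one probe and 0.64 by the other. ICMT, which encodes the methyltransferase that finishes prenylated proteins, rose (log2 change 0.86, adjusted p = 9.2e-11), with 896.7 to 1122.9 in high and 504.6 to 639.1 in low glucose. RXRA, the gene of a nuclear receptor that pairs with LXR, rose by 0.75, and CYB5B, the gene of a cytochrome b5 of the outer mitochondrial membrane, by 0.58. LRPAP1, a chaperone gene of lipoprotein receptors, rose by 0.47. NCEH1, the gene of a cholesteryl ester hydrolase, rose by 0.44 by the probe used, and its other probe did not pass (0.14, adjusted p = 0.28 over all probes).

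No gene among the members had probes called in opposite directions. There were 16 further probes for 9 of the members. Of these, 5 were called higher, for ACAT2, DHCR7, LSS, MSMO1 and SQLE, and none was called lower. The other 11 did not pass the test, and they belong to ABCG1, SREBF1, INSIG1, SOAT2, LSS and MSMO1.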

How the data were processed

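RNA from 12 HepG2 cultures was hybridised to Illumina HumanHT-12 BeadChips. The deposited intensities are linear and were normalized by the authors, and the sorted values of the arrays differ by at most 0.825, as after quantile normalization. The submitters' processing notes name GenomeStudio 2010.1, and the methods name limma and CyberT without settings. A table made before normalization holds 24 columns (signals and detection values) that could not be tied to samples by name, and it was left out.

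Of 48803 probes, the 28098 with 1 gene symbol in the platform annotation were used (13 have several). The brightest probe on average stood for its gene, giving 18852 genes. Log2 intensities of both groups were compared by limma 3.58.1 under R 4.3.3, using lmFit and eBayes (trend = TRUE) without covariates, and adjusted by Benjamini-Hochberg over all genes, or over the 28098 probes for single probes. The fit was also run on simulated data with independent noise. Such data hold no effect shared between cultures, so that run cannot speak to one. The number of arrays limits the precision (median within-group SD 0.127, log2). The methods call the replicates biological; whether cultures share a day is not stated, so p-values measure the spread between these cultures.

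The members and lists were chosen with earlier results of these data known. Array values are given for up to 4 called members with the largest change in each role, for each member that fell and for SREBP control and efflux genes, and beyond this rule for CYP51A1, TM7SF2, GGPS1, MYLIP and STARD4, which were chosen after their values were seen. Up to 8 called genes of the wider list are named, with MBTPS2 added in that way; 4 of its 53 genes are not reported here. Alternatives were log2(value + 16), the mean of a gene's probes, array weights, normexp (offset 16), a Cyber-T style test, a block for the replicate number, only genes over 100 on at least 6 arrays, an adjusted p under 0.01, a fold of at least 1.5, and each array left out.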

Additional observations from a re-analysis of the deposited data

Results flagged for a closer look

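In 2 of 60 sets of 6 arrays (30 genes in 2 groups), 1 array lay apart from the other 5 by Dixon's criterion on the log2 scale, where chance gives about 1 in 20. MSMO1 had an intensity of 2829.9 in low-glucose replicate 5, and the nearest of the other low-glucose arrays had 3857.4. MYLIP had 454.9 in high-glucose replicate 6, and the nearest of the other high-glucose arrays had 496.1. The log2 change of MSMO1 passed the test without that array as well, and that of MYLIP did not pass with or without it.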

How the results depend on the processing

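The 17 synthesis enzymes, ABCA1 and INSIG2 kept their direction and stayed past an adjusted p of 0.05 in all 19 refits of a member's change. Over the members, 542 of 569 refitted changes kept direction and call, 9 (all NR1H3) lost the call, 6 (all MYLIP) gained it and 12 changed sign, none of them a called change. With array weights the log2 change of SOAT1 was 0.0003. Leaving out 1 array at a time gave log2 changes of -0.0531 to 0.0659 for SOAT1, -0.0067 to 0.0398 for SCAP, -0.0222 to 0.11 for CYP51A1 and -0.0076 to 0.1395 for SREBF2. Members called higher numbered 18 or 19 with an array left out, and members called lower 1 or 2. The second was MYLIP, which also made 2 members lower with the mean of all probes, array weights and the filter on genes over 100. At a fold of at least 1.5, 9 members were higher and 0 lower by limma, and 2 genes of the wider list were higher and 2 lower. With the replicate number as a replicate block 18 members were called higher and 2 lower, MYLIP being gained (adjusted p = 0.049) and NR1H3 lost (adjusted p = 0.057). Same-numbered arrays deviated together at r = -0.054 to 0.021, and 1 of 12 arrays correlated best with its own number, so the numbers are not taken as pairs. STARD4 was not tested under the filter on genes over 100. Signal over background limits INSIG1, STARD4 and ABCG1, whose intensities lie near the median of all probes. To a lesser degree it limits SREBF2 (mean 171.3).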
